A study of Mus musculus with 7 samples.

Results

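The comparison described here is the siRNA experiment of a study of lnc-31, a long noncoding RNA, in C2C12 cells. It takes 4 of the 7 samples of the series: 2 libraries with the label scrambled siRNA and 2 with the label lnc-31 siRNA, all from proliferating C2C12 murine myoblasts. The scrambled libraries have the label control for genotype and the others lnc31 knockdown, and no allele, transgene or other agent is named for either group. Of 13376 rows in the table, the 11500 with a mean of 1 FPKM or more over the 4 libraries were compared. FPKM is the number of fragments scaled to the length of the transcript and to the size of the library. The genes described are mainly those outside lists of sarcomere, cell cycle, stress, matrix and clock genes. They are grouped as secreted factors, receptors, transporters, enzymes and transcription factors. The excluded lists do not hold every gene of those kinds: Tfdp1, a partner of E2F proteins, and the integrin Itga3 lie outside them. The other 3 samples of the series are an input and 2 pull-downs with biotinylated antisense probes, used here only for overlap with peaks. Whether the 2 libraries of each kind are from separate cultures is not stated, and the p-values therefore measure the spread between these libraries, which may be technical.

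C2C12 is an established mouse line of muscle precursors. Its cells divide in rich medium and, when serum is withdrawn, leave the cell cycle and fuse into multinucleated fibres. Growth factors and their binding proteins set that choice together with transcription factors such as MyoD, and E-boxes (CANNTG) are the DNA sites that MyoD and its bHLH relatives bind. lnc-31 comes from the locus that also gives the microRNA miR-31, and a short interfering RNA lowers a transcript by directing its cleavage, while a scrambled sequence serves as its control.

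The row that names the targeted locus joins Mir31 with an unannotated transcript, so it is no direct measure of lnc-31. It stood at 13.4 and 15.6 FPKM with scrambled siRNA against 12.1 and 14.1 FPKM with lnc-31 siRNA, a difference of log2 fold change -0.14, SE 0.099, adjusted p = 0.383 by limma. The ranges of the groups overlapped, so this row neither checks nor contradicts the labels, and the libraries are called by their labels throughout. Both mature microRNAs of the locus are shown because the row is named after their precursor, with the seed, bases 2 to 8, in capitals, as listed by RefSeq for GRCm38.p6.
mmu-miR-31-5p, chr4:88910614-88910635, minus strand: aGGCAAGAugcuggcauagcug
mmu-miR-31-3p, chr4:88910577-88910599, minus strand: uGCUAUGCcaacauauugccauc
The 2 arms have different seeds. Rock1, a kinase of the actin cytoskeleton whose mRNA published work ties to lnc-31, lay at 16.6 and 17.1 FPKM under scrambled siRNA and 17.8 and 17.6 FPKM under lnc-31 siRNA (log2 fold change 0.07, SE 0.047, adjusted p = 0.38). Ybx1, an RNA-binding protein, stood at 524 and 514 FPKM with scrambled siRNA against 499 and 509.7 FPKM with lnc-31 siRNA (log2 fold change -0.04, SE 0.044, adjusted p = 0.561). Neither was called.

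Libraries of the same group ranked the rows alike, with a Spearman correlation over rows of 0.9925 within the scrambled pair and 0.9903 within the lnc-31 pair. Their summed FPKM differed, at 1515596 and 2466046 with scrambled siRNA and 2141386 and 2201055 with lnc-31 siRNA. Median of ratios factors lay between 0.9838 and 1.019. In a principal component analysis the leading axis (41.4% of variance) separated library 1 of lnc-31 siRNA from the other 3, not the groups. The next axis (35.9%) did not separate the groups either. On it the scrambled libraries lay at 0.124 and 28 and the lnc-31 libraries at 3.34 and -31.5. Depth is unknown, because FPKM values carry no counts. Of 8 myoblast markers 6 were listed (Pax7 and Msc were not), and 4 of them, Myod1, Des, Cdh15 and Myog, were called higher. The summed level of the 6 listed markers ran from 426 to 443 FPKM with scrambled siRNA and from 532 to 543 FPKM with lnc-31 siRNA. Myf5 went the other way, at 38.6 and 37.5 FPKM with scrambled siRNA against 35.2 and 35.4 FPKM with lnc-31 siRNA, and was not called. Itga7 was not called either. The summed fibroblast markers ran from 141 to 144 and from 144 to 147 FPKM, with 1 of 4 listed, Pdgfrb, called higher. No endothelial marker was listed, and the 10 listed markers of osteoblasts, adipocytes, blood, epithelium and neural cells were not called. The epithelial one ran from 0.0993 and 0.143 FPKM with scrambled siRNA to 0.517 and 0.540 FPKM with lnc-31 siRNA, too low to be tested. The rise of muscle genes accompanies every change below, and its part in them was not tested. In bulk RNA, a change in the number of cells of a kind and a change of RNA per cell cannot be told apart.

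Among the 11500 rows, 1429 were called at an adjusted p under 0.05 (limma, Benjamini-Hochberg), which is 12.4%. Higher with lnc-31 siRNA were 649 rows (5.64%) and lower were 780 rows (6.78%). This excess of lower calls depended on the libraries: without scrambled siRNA 2 there were 163 higher and 97 lower, and without library 1 of lnc-31 siRNA 266 and 225. Median of ratios scaling gave 961 higher and 972 lower. Most changes were small: the median size over the called rows was a log2 fold change of 0.33, and 169 rows (1.47%) were both called and changed at least 1.5-fold. An unadjusted p under 0.05 was found for 3556 rows (30.9%). Groups that did not overlap were common, at 60.2% of all rows, so a lack of overlap alone sets few rows apart. Genes picked by role or outside all lists had to be called and without overlap. Statements below that their groups did not overlap restate that choice and add no support. The filter on the mean lets in rows that reach 1 FPKM in 1 group only, where a difference is built in; 28 called rows were of that kind, 4 of them among the 429 called in the 5 roles. Of the called rows, 526 of the higher and 671 of the lower lay outside the 5 excluded lists. The count depends on every library: with 1 library left out it fell to between 260 and 491, and 99 rows called higher (0.861%) and 81 called lower (0.704%) kept their call in all 4 such fits. Genes among those are called stable below where this is stated, and for others the library whose omission ended the call is given. Where neither is given for a gene, its stability is not described.

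Secreted factors were called most often of the 5 roles. Of 155 tested, 23 were called higher (14.8%) and 20 lower (12.9%), with a median log2 fold change of 0.03 against -0.01 over all rows. Without members of the excluded lists, 17 of 145 were higher and 20 lower, against 526 and 671 of all 11001 such rows. Of 212 receptors, 22 were higher (10.4%) and 5 lower (2.36%). With quantile normalization 9 receptors were lower. Transporters and trafficking proteins had 35 higher (5.96%) and 45 lower (7.67%) of 587, enzymes 117 higher (6.59%) and 100 lower (5.63%) of 1775, and transcription factors 34 higher (7.66%) and 29 lower (6.53%) of 444. With median of ratios scaling 56 transporters were higher. The last 3 roles were near the background, and their counts are not read as results about the roles. All lists were chosen with earlier results of these data known. The shares of secreted factors and receptors therefore describe these lists and are no test of the roles. The shares over all rows, 5.64% higher and 6.78% lower, also stand beside the family counts below. Stable calls numbered 3 higher and 3 lower for secreted factors, 2 and 1 for receptors, 7 and 3 for transporters, 14 and 18 for enzymes, and 9 and 4 for transcription factors.

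**Figure D1:**
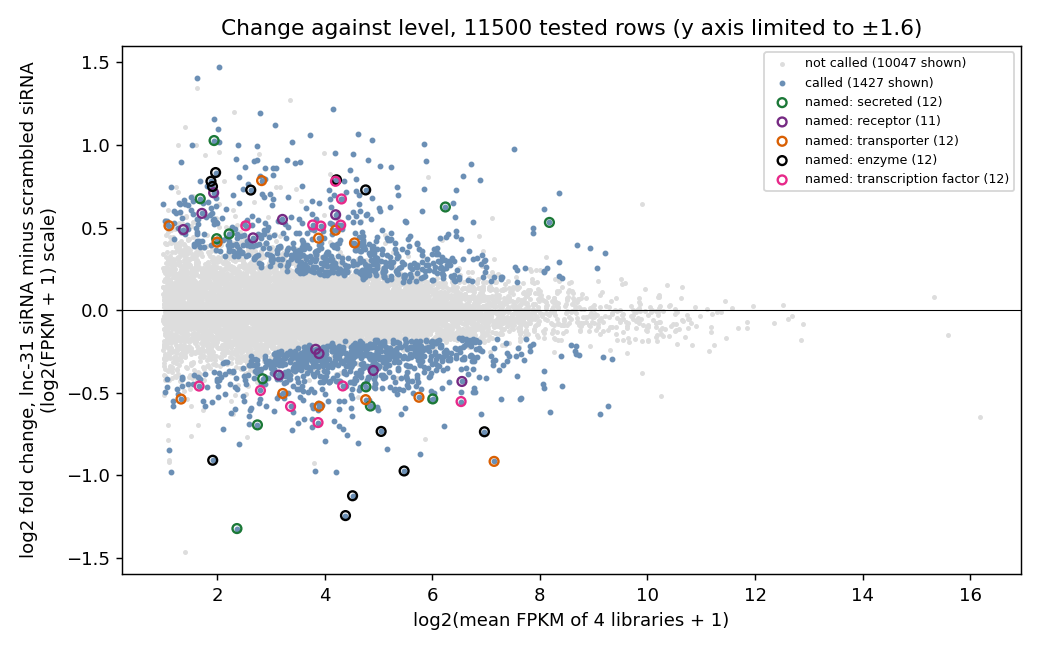
Log2 fold change (lnc-31 siRNA minus scrambled siRNA, on the log2(FPKM + 1) scale) against the log2 mean level for 11474 tested rows, 26 more lying beyond the axis. Blue points are called rows and open circles are, for each of the 5 roles, up to 6 called genes with the highest and 6 with the lowest fold change outside the excluded lists, which lie between -1.32 and 1.03.

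Hfe2, C1qtnf3 and Igfbp5 were the stable rises among the listed secreted factors. Secreted proteins that the lists missed, such as Lgals3bp, are given further below. Hfe2 (hemojuvelin), a repulsive guidance molecule that serves as a BMP coreceptor in muscle and liver, measured 1.43 and 1.62 FPKM under scrambled siRNA and 3.71 and 4.63 FPKM under lnc-31 siRNA, a log2 fold change of 1.03 (SE 0.11, adjusted p = 0.00924). C1qtnf3, a secreted C1q-domain protein made by cartilage and fat, stood at 53.9 and 63.6 FPKM with scrambled siRNA against 90.4 and 91.2 FPKM with lnc-31 siRNA, a log2 fold change of 0.62 (SE 0.079, adjusted p = 0.0118). Igfbp5, the main insulin-like growth factor binding protein of differentiating myoblasts, lay at 226 and 246 FPKM under scrambled siRNA and 344 and 338 FPKM under lnc-31 siRNA, a log2 fold change of 0.53 (SE 0.054, adjusted p = 0.008). Each was higher in both lnc-31 libraries than in either scrambled library, and the spread between libraries of a group was small beside the gap. Fndc5, the precursor of irisin, lay at 1.21 and 1.76 FPKM with scrambled siRNA against 3.25 and 2.66 FPKM with lnc-31 siRNA (log2 fold change 0.67, adjusted p = 0.0375). Wnt9a, a Wnt ligand, stood at 3.03 and 2.83 FPKM under scrambled siRNA and 4.27 and 4.55 FPKM under lnc-31 siRNA (log2 fold change 0.46, adjusted p = 0.0216). Neither Fndc5 nor Wnt9a was stable. Both lnc-31 libraries lay above both scrambled ones, which the rule for naming these genes required. Their calls were lost with any 1 library left out for Fndc5 and Wnt9a (adjusted p = 0.0594 to 0.124).

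The secreted factors that fell were led by Nptx1, neuronal pentraxin 1, a synaptic protein that clusters glutamate receptors. It measured 6.28 and 6.48 FPKM with scrambled siRNA against 1.91 and 1.99 FPKM with lnc-31 siRNA, a log2 fold change of -1.32 (SE 0.071, adjusted p = 0.00297). Sema3a, a semaphorin that repels axons, stood at 34.5 and 32.6 FPKM under scrambled siRNA and 22.97 and 21.2 FPKM under lnc-31 siRNA, a log2 fold change of -0.58 (SE 0.058, adjusted p = 0.00778). Grem1 (gremlin 1), which binds and blocks BMPs, lay at 75.96 and 74.6 FPKM with scrambled siRNA against 49.5 and 53.6 FPKM with lnc-31 siRNA, a log2 fold change of -0.54 (SE 0.051, adjusted p = 0.00685). These 3 were stable, with no overlap between the groups. Hbegf, an EGF receptor ligand, stood at 7.22 and 7.4 FPKM under scrambled siRNA and 3.79 and 4.49 FPKM under lnc-31 siRNA (log2 fold change -0.70, adjusted p = 0.0107). Igfbp4, another IGF binding protein, measured 29.1 and 32.1 FPKM with scrambled siRNA against 21.99 and 21.7 FPKM with lnc-31 siRNA (log2 fold change -0.47, adjusted p = 0.0117). The row that joins Bbs12 with Fgf2, a mitogen of myoblasts, stood at 6.97 and 7.47 FPKM under scrambled siRNA and 4.98 and 5.35 FPKM under lnc-31 siRNA (log2 fold change -0.42, adjusted p = 0.0224), and the share of each gene in it cannot be told apart. These last calls were lost with any 1 library left out for the Bbs12 and Fgf2 row (adjusted p = 0.0622 to 0.0983), without scrambled siRNA 1 or 2 for Hbegf (adjusted p = 0.0581 to 0.0632) and without scrambled siRNA 2 for Igfbp4 (adjusted p = 0.0544).

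By family, growth factors moved in different directions. Of 9 PDGF and VEGF ligands, 3 were higher (33.3%, against 5.64% of all rows) and none lower (against 6.78%). Vegfc, a lymphatic growth factor, lay at 13.7 and 13.2 FPKM with scrambled siRNA against 16.6 and 17.8 FPKM with lnc-31 siRNA (log2 fold change 0.33, adjusted p = 0.0235). Pdgfc, a PDGF ligand, stood at 25.8 and 27.1 FPKM under scrambled siRNA and 33.2 and 35.7 FPKM under lnc-31 siRNA (log2 fold change 0.37, adjusted p = 0.017). Both EGF family members that were called, of 5 tested, fell, Btc (betacellulin) beside Hbegf. Btc measured 6.31 and 6.32 FPKM with scrambled siRNA against 4.38 and 4.62 FPKM with lnc-31 siRNA (log2 fold change -0.41, adjusted p = 0.0192). Of 7 IGF ligands and binding proteins 4 were called, 2 in each direction (28.6% each), Igf2 being the other riser. Igf2, a growth factor that myoblasts make as they differentiate, stood at 28.7 and 31.3 FPKM under scrambled siRNA and 40.04 and 41.3 FPKM under lnc-31 siRNA (log2 fold change 0.43, adjusted p = 0.013). The fall beside Igfbp4 was that of Igfbp6, a gene described after its values were seen, at 209 and 209 FPKM with scrambled siRNA against 174 and 181 FPKM with lnc-31 siRNA (log2 fold change -0.23, adjusted p = 0.0268). Outside Igfbp5 none of these was stable, and calls were lost with any 1 library left out for Vegfc, Btc and Igfbp6 (adjusted p = 0.0515 to 0.123), without scrambled siRNA 1 or 2 or library 2 of lnc-31 siRNA for Pdgfc (adjusted p = 0.0631 to 0.0859) and without scrambled siRNA 1 or library 2 of lnc-31 siRNA for Igf2 (adjusted p = 0.0527 to 0.0603).

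Signals to immune and blood cells were divided as well. Of 22 interleukins and other cytokines none was higher and 3 were lower (13.6%, against 6.78% of all rows). Among them Csf1, the macrophage growth factor, lay at 80.8 and 77.5 FPKM under scrambled siRNA and 62.3 and 65.4 FPKM under lnc-31 siRNA (log2 fold change -0.31, adjusted p = 0.0176). Il33, an alarmin held in the nucleus, lay at 14.4 and 14.7 FPKM with scrambled siRNA against 11.2 and 11.4 FPKM with lnc-31 siRNA (log2 fold change -0.34, adjusted p = 0.0169). Kitl, the ligand of the Kit receptor, stood at 23.9 and 23.9 FPKM under scrambled siRNA and 18.5 and 18.1 FPKM under lnc-31 siRNA (log2 fold change -0.37, adjusted p = 0.0105). In all 3 the libraries of a group lay close together and the groups did not overlap. Of 11 chemokines 3 were higher (27.3%, against 5.64% of all rows) and 1 lower (9.09%). Ccl7, which attracts monocytes, measured 26.3 and 24.98 FPKM with scrambled siRNA against 32.3 and 36.96 FPKM with lnc-31 siRNA (log2 fold change 0.42, adjusted p = 0.0243). Cx3cl1 (fractalkine), which is tethered to the membrane, stood at 8.41 and 7.71 FPKM under scrambled siRNA and 5.96 and 6.31 FPKM under lnc-31 siRNA (log2 fold change -0.34, adjusted p = 0.0345). No call of this paragraph was stable, and calls were lost with any 1 library left out for Il33 and Cx3cl1 (adjusted p = 0.064 to 0.133), without scrambled siRNA 1 or 2 or library 1 of lnc-31 siRNA for Csf1 (adjusted p = 0.0652 to 0.0937), without scrambled siRNA 1 or 2 or library 2 of lnc-31 siRNA for Ccl7 (adjusted p = 0.0622 to 0.107) and without scrambled siRNA 1 or 2 for Kitl (adjusted p = 0.064). Of 12 peptide hormones 5 were higher (41.7%) and 1 lower (8.33%). Of the 12, 4 are in the excluded lists, and without them 2 were higher and 1 lower of 8. Of 10 serpins, 4 were higher (40%) and none lower, 2 of 7 without the excluded lists. Serpine2 (protease nexin 1) lay at 14.6 and 14.7 FPKM with scrambled siRNA against 18.6 and 20.3 FPKM with lnc-31 siRNA (log2 fold change 0.38, adjusted p = 0.0173), and its call was not stable, lost without scrambled siRNA 1 or 2 or library 2 of lnc-31 siRNA with adjusted p = 0.0645 to 0.0827.

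Receptors were called higher more often than lower, 22 against 5 (10.4% and 2.36%, against 5.64% and 6.78% of all rows). Cnr1, the cannabinoid receptor CB1, stood at 1.8 and 2.01 FPKM under scrambled siRNA and 3.75 and 3.75 FPKM under lnc-31 siRNA, a log2 fold change of 0.71 (SE 0.081, adjusted p = 0.0099). Ackr3, an atypical receptor that takes up the chemokine Cxcl12, measured 6.39 and 6.69 FPKM with scrambled siRNA against 10.1 and 9.94 FPKM with lnc-31 siRNA, a log2 fold change of 0.55 (SE 0.057, adjusted p = 0.00809). Both were stable, and in both the lnc-31 libraries differed from each other by less than the scrambled ones did. Of 66 G protein-coupled receptors 8 were higher (12.1%) and 2 lower (3.03%). Cxcr4, the signalling receptor of Cxcl12, stood at 19.2 and 20.2 FPKM under scrambled siRNA and 24.02 and 24.8 FPKM under lnc-31 siRNA (log2 fold change 0.30, adjusted p = 0.0216). Htr1b, a serotonin receptor, lay at 4.18 and 4.62 FPKM with scrambled siRNA against 6.53 and 6.1 FPKM with lnc-31 siRNA (log2 fold change 0.44, adjusted p = 0.0242). Both lay above the scrambled range in each lnc-31 library. These calls were lost with any 1 library left out for Cxcr4 and Htr1b (adjusted p = 0.065 to 0.102).

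Of 25 cytokine receptors, 4 were higher (16%, against 5.64% of all rows) and none lower, and none of the 4 calls was stable. Crlf2, a subunit of the receptor for thymic stromal lymphopoietin, stood at 1.57 and 1.68 FPKM under scrambled siRNA and 2.66 and 3.24 FPKM under lnc-31 siRNA (log2 fold change 0.59, adjusted p = 0.0256). Il1rl1 (ST2), the receptor of Il33, measured 1.13 and 1.18 FPKM with scrambled siRNA against 1.97 and 2.08 FPKM with lnc-31 siRNA (log2 fold change 0.49, adjusted p = 0.0281), so receptor and ligand were called in opposite directions. Il1r1, the interleukin 1 receptor, stood at 24.3 and 24.8 FPKM under scrambled siRNA and 31.02 and 31.3 FPKM under lnc-31 siRNA (log2 fold change 0.33, adjusted p = 0.0118). All 3 had lnc-31 libraries above both scrambled ones. Ptprv, a receptor-type tyrosine phosphatase, lay at 14.7 and 12.9 FPKM with scrambled siRNA against 19.3 and 22.9 FPKM with lnc-31 siRNA (log2 fold change 0.58, adjusted p = 0.0239). Igf2r, which carries Igf2 to lysosomes, stood at 9.57 and 10.5 FPKM under scrambled siRNA and 13.7 and 13.3 FPKM under lnc-31 siRNA (log2 fold change 0.39, adjusted p = 0.0199). None was stable, and calls were lost with any 1 library left out for Il1rl1 and Igf2r (adjusted p = 0.0565 to 0.112) and without scrambled siRNA 1 or 2 or library 2 of lnc-31 siRNA for Crlf2, Il1r1 and Ptprv (adjusted p = 0.0533 to 0.102). Of 15 Frizzled receptors and Wnt coreceptors 0 were called by limma, and 3 had an unadjusted p under 0.05. Of 16 pattern and scavenger receptors 0 were called, and 4 had an unadjusted p under 0.05.

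On the log2(FPKM + 1) scale, Axl was the receptor with the lowest log2 fold change. This receptor tyrosine kinase, which binds Gas6, measured 107 and 107 FPKM with scrambled siRNA against 78.7 and 78.9 FPKM with lnc-31 siRNA, a log2 fold change of -0.43 (SE 0.037, adjusted p = 0.0057), and was stable. The libraries within each group were within 1 FPKM of each other. Plxna1, a plexin through which Sema3a signals together with neuropilins, stood at 32.3 and 33.2 FPKM under scrambled siRNA and 25.8 and 24.5 FPKM under lnc-31 siRNA (log2 fold change -0.37, adjusted p = 0.013). Epha1, a receptor for ephrins, lay at 8.82 and 9.28 FPKM with scrambled siRNA against 6.78 and 6.52 FPKM with lnc-31 siRNA (log2 fold change -0.39, adjusted p = 0.0178). The adhesion receptors Gpr124 and Lphn3 completed the 5. Gpr124, a coreceptor of Wnt7 in brain vessels, stood at 14.9 and 15.6 FPKM under scrambled siRNA and 12.9 and 12.2 FPKM under lnc-31 siRNA (log2 fold change -0.26, adjusted p = 0.0373). Lphn3, a latrophilin, measured 14.7 and 14.1 FPKM with scrambled siRNA against 12.3 and 11.9 FPKM with lnc-31 siRNA (log2 fold change -0.24, adjusted p = 0.043). Apart from Axl the falls were not stable, and calls were lost with any 1 library left out for Epha1, Gpr124 and Lphn3 (adjusted p = 0.0588 to 0.164) and without scrambled siRNA 1 or 2 or library 2 of lnc-31 siRNA for Plxna1 (adjusted p = 0.0523 to 0.0741).

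**Figure D2:**
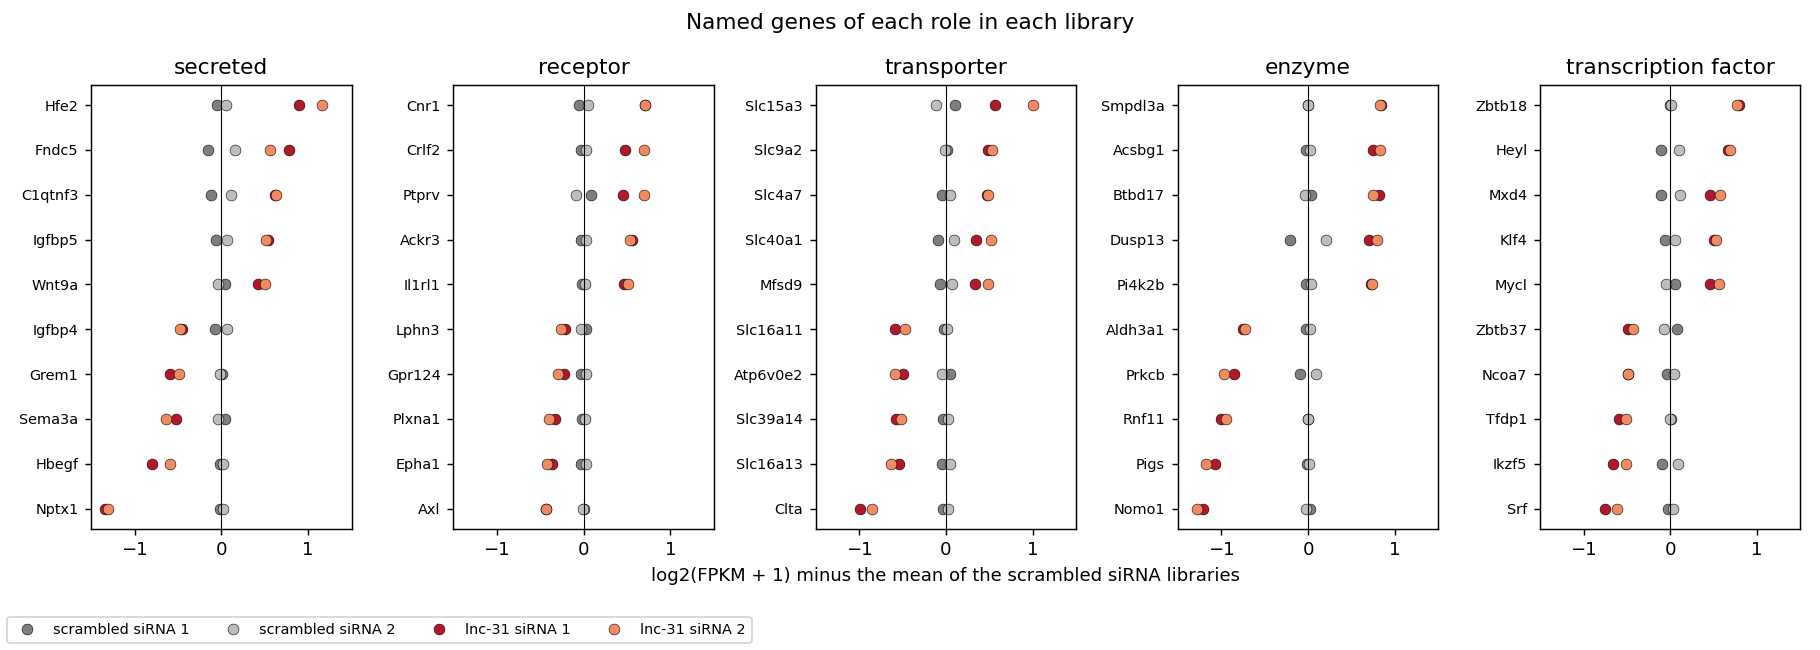
Log2(FPKM + 1) of each library minus the mean of the 2 scrambled siRNA libraries, for up to 5 named genes per role with the highest and 5 with the lowest log2 fold change; grey points are scrambled and red and orange points lnc-31 siRNA libraries. The grey points lie near 0. Neither lnc-31 library crosses them, because the genes were chosen without overlap between the groups. The widest grey spread is that of Dusp13, at 1.43 and 2.23 FPKM.

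The largest fall among transporters and trafficking proteins was that of Clta, the clathrin light chain A of coated vesicles. It stood at 181 and 188 FPKM under scrambled siRNA and 92.8 and 102 FPKM under lnc-31 siRNA, a log2 fold change of -0.92 (SE 0.058, adjusted p = 0.00361), and was stable. Of 66 clathrin coat and adaptor genes 1 was higher and 9 were lower (13.6%, against 6.78% of all rows). Cltb, the other light chain, described after its values were seen, lay at 14.96 and 17.2 FPKM with scrambled siRNA against 12.8 and 12.5 FPKM with lnc-31 siRNA (log2 fold change -0.32, adjusted p = 0.0477). Ap1g1, a subunit of the AP-1 adaptor of the trans-Golgi, stood at 36.4 and 38.8 FPKM under scrambled siRNA and 29.1 and 26.9 FPKM under lnc-31 siRNA (log2 fold change -0.41, adjusted p = 0.0154). Necap1, a partner of the AP-2 adaptor, measured 21.2 and 22.99 FPKM with scrambled siRNA against 16.9 and 16.9 FPKM with lnc-31 siRNA (log2 fold change -0.37, adjusted p = 0.0173). The groups did not overlap in any of these, but only Clta was stable. The other calls were lost with any 1 library left out for Cltb (adjusted p = 0.0567 to 0.147), without scrambled siRNA 1 or 2 or library 2 of lnc-31 siRNA for Ap1g1 (adjusted p = 0.0529 to 0.0763) and without scrambled siRNA 2 or library 1 or 2 of lnc-31 siRNA for Necap1 (adjusted p = 0.0628 to 0.0784).

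Solute carriers move small molecules across membranes. Of 184 tested, 20 were higher (10.9%, against 5.64% of all rows) and 16 lower (8.7%, against 6.78%). Outside the excluded lists 15 were higher and 16 lower of 176. Slc4a7, a sodium bicarbonate cotransporter, stood at 13.9 and 14.8 FPKM under scrambled siRNA and 20.4 and 20.6 FPKM under lnc-31 siRNA, a log2 fold change of 0.48 (SE 0.053, adjusted p = 0.00916). Slc39a14 (ZIP14), which takes up zinc, iron and manganese, lay at 30.6 and 31.8 FPKM with scrambled siRNA against 20.7 and 21.5 FPKM with lnc-31 siRNA, a log2 fold change of -0.54 (SE 0.048, adjusted p = 0.0057). Slc16a11, a monocarboxylate transporter, stood at 61.9 and 63.4 FPKM under scrambled siRNA and 41.4 and 44.99 FPKM under lnc-31 siRNA, a log2 fold change of -0.53 (SE 0.053, adjusted p = 0.00797). The first rose and the others fell, all 3 stable. Slc16a13, its relative and neighbour, measured 16.3 and 17.5 FPKM with scrambled siRNA against 11.3 and 10.5 FPKM with lnc-31 siRNA (log2 fold change -0.58, adjusted p = 0.00887). Slc36a4, an amino acid transporter of the proton-coupled family, stood at 9.57 and 10.3 FPKM under scrambled siRNA and 6.79 and 6.61 FPKM under lnc-31 siRNA (log2 fold change -0.51, adjusted p = 0.0109). Atp6v0e2, a subunit of the proton pump of endosomes, lay at 2.07 and 1.88 FPKM with scrambled siRNA against 1.12 and 0.98 FPKM with lnc-31 siRNA (log2 fold change -0.54, adjusted p = 0.0272). Each of these fell in both lnc-31 libraries. Among the rises, Slc15a3, a peptide and histidine transporter of lysosomes, stood at 4.58 and 3.79 FPKM under scrambled siRNA and 6.67 and 9.35 FPKM under lnc-31 siRNA (log2 fold change 0.78, adjusted p = 0.0344). Slc9a2, a sodium/proton exchanger, measured 0.786 and 0.762 FPKM with scrambled siRNA against 1.49 and 1.56 FPKM with lnc-31 siRNA. It reached 1 FPKM only with lnc-31 siRNA, so its call is not read as a result about this gene. The row remains in the counts of members called higher and in the neighbour pairs given further below. Slc40a1 (ferroportin), the iron exporter, stood at 10.8 and 12.3 FPKM under scrambled siRNA and 14.9 and 17.05 FPKM under lnc-31 siRNA (log2 fold change 0.44, adjusted p = 0.0364). Slc15a3 and Slc40a1 were higher in both lnc-31 libraries. Calls were lost with any 1 library left out for Atp6v0e2 and Slc40a1 (adjusted p = 0.0516 to 0.129), without scrambled siRNA 1 or 2 or library 2 of lnc-31 siRNA for Slc15a3 (adjusted p = 0.0731 to 0.131) and without scrambled siRNA 2 for Slc16a13 and Slc36a4 (adjusted p = 0.0513 to 0.0621).

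Other genes that handle zinc were collected after their values were seen, so their count is a description: of 17 tested metallothioneins, Slc30 and Slc39 carriers, none was higher and 5 were lower, Slc39a14 among them. Mt2, a metallothionein that binds zinc and copper, lay at 232 and 239 FPKM with scrambled siRNA against 166 and 159.7 FPKM with lnc-31 siRNA, a log2 fold change of -0.53 (SE 0.044, adjusted p = 0.00559). Mt1, its neighbour, stood at 400.005 and 389.6 FPKM under scrambled siRNA and 293 and 281 FPKM under lnc-31 siRNA (log2 fold change -0.46, adjusted p = 0.00763). Slc39a13 (ZIP13), a zinc carrier of the secretory pathway, measured 23.9 and 23.9 FPKM with scrambled siRNA against 19.6 and 19.3 FPKM with lnc-31 siRNA (log2 fold change -0.28, adjusted p = 0.0176). Slc30a4 (ZnT4), which loads zinc into vesicles, stood at 64.3 and 63.4 FPKM under scrambled siRNA and 55.2 and 54.001 FPKM under lnc-31 siRNA (log2 fold change -0.22, adjusted p = 0.0256). All 4 were lower in each lnc-31 library than in either scrambled one, and among them Mt2 was stable. Calls were lost with any 1 library left out for Slc39a13 and Slc30a4 (adjusted p = 0.0652 to 0.121) and without scrambled siRNA 1 for Mt1 (adjusted p = 0.0509).

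Of 52 nucleoporins and karyopherins, which carry molecules through the nuclear pore, 1 was higher and 7 were lower (13.5%, against 6.78% of all rows). Nup50, a mobile nucleoporin, lay at 52.7 and 51.7 FPKM with scrambled siRNA against 38.1 and 39.6 FPKM with lnc-31 siRNA (log2 fold change -0.42, adjusted p = 0.008). Kpna3, an importin alpha, stood at 43.9 and 44.95 FPKM under scrambled siRNA and 35.3 and 35.6 FPKM under lnc-31 siRNA (log2 fold change -0.32, adjusted p = 0.0121). Kpna1, its relative, was the member that rose, at 18.1 and 19.2 FPKM with scrambled siRNA against 24.1 and 25.95 FPKM with lnc-31 siRNA (log2 fold change 0.41, adjusted p = 0.0167). Of 21 ABC transporters none was higher and 3 were lower (14.3%), all of them drug efflux pumps. No member of either family kept its call with each library left out. Abcg2 measured 22.1 and 22.9 FPKM under scrambled siRNA and 17.4 and 17.9 FPKM under lnc-31 siRNA (log2 fold change -0.34, adjusted p = 0.0157). Abcc1 stood at 43.1 and 41.8 FPKM with scrambled siRNA against 34.5 and 34.2 FPKM with lnc-31 siRNA (log2 fold change -0.30, adjusted p = 0.015). Calls were lost with any 1 library left out for Abcg2 and Abcc1 (adjusted p = 0.0532 to 0.083), without scrambled siRNA 1 or 2 or library 1 of lnc-31 siRNA for Kpna3 (adjusted p = 0.0508 to 0.0741), without scrambled siRNA 1 or 2 or library 2 of lnc-31 siRNA for Kpna1 (adjusted p = 0.0606 to 0.0801) and without scrambled siRNA 1 for Nup50 (adjusted p = 0.0502). Tomm20, a receptor of the mitochondrial import pore, lay at 56.9 and 58.6 FPKM under scrambled siRNA and 37.9 and 43.2 FPKM under lnc-31 siRNA (log2 fold change -0.50, adjusted p = 0.0141, lost without scrambled siRNA 1 or 2 with adjusted p = 0.067 to 0.0758), while Vdac1, the channel of the same membrane, described after its values were seen, stood at 226 and 239.6 FPKM with scrambled siRNA against 159 and 159.97 FPKM with lnc-31 siRNA, a log2 fold change of -0.54 (SE 0.045, adjusted p = 0.00559), and was stable.

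**Figure D3:**
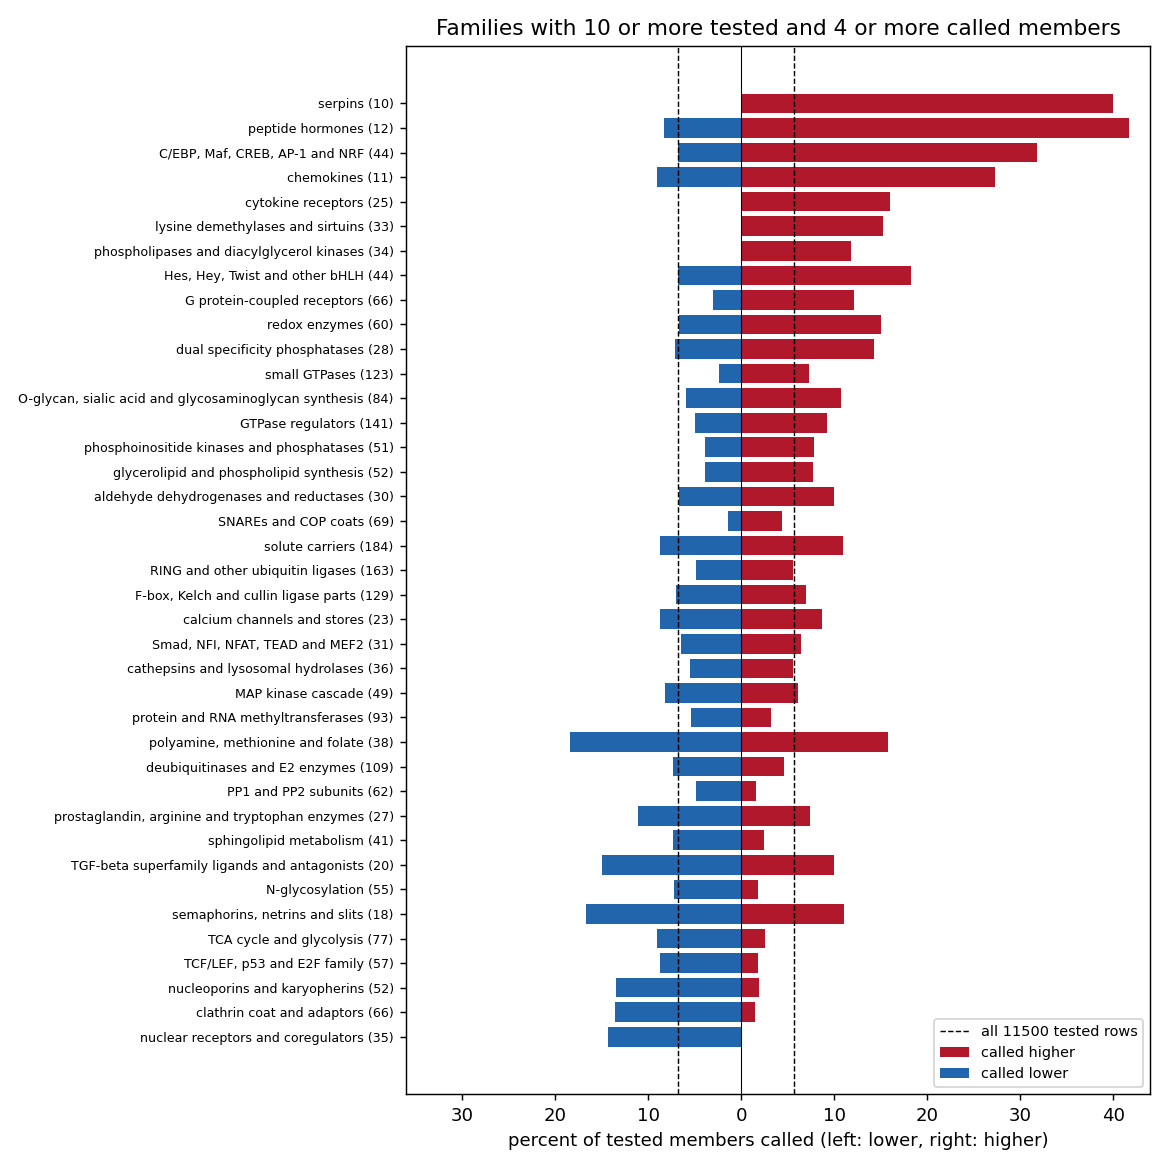
Percent of tested members called higher (red, right) and lower (blue, left) in the 39 families with 10 or more tested and 4 or more called members, the number tested in brackets; dashed lines mark 5.64% and 6.78% of all rows. Peptide hormones reach 41.7% higher, and the families are ordered by percent higher minus percent lower. Nuclear receptors, clathrin coat and nucleoporins come last in that order with 14.3%, 13.6% and 13.5% lower. Polyamine, methionine and folate metabolism has a larger share lower (18.4%) beside 15.8% higher. So do semaphorins, netrins and slits (16.7% beside 11.1% higher) and TGF-beta superfamily ligands and antagonists (15% beside 10% higher). Members of the excluded lists are included.

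Nomo1 and Pigs had the lowest log2 fold changes of the enzyme lists on the log2(FPKM + 1) scale. Nomo1, a membrane protein of the endoplasmic reticulum listed with N-glycosylation, measured 28.8 and 28.04 FPKM under scrambled siRNA and 11.7 and 11.1 FPKM under lnc-31 siRNA, a log2 fold change of -1.24 (SE 0.050, adjusted p = 0.00217). Pigs, a subunit of the transamidase that attaches GPI anchors to proteins, stood at 30.1 and 30.7 FPKM with scrambled siRNA against 13.9 and 12.9 FPKM with lnc-31 siRNA, a log2 fold change of -1.12 (SE 0.054, adjusted p = 0.00217). Both fell in each lnc-31 library, well beyond the spread within a group, and both were stable. Their families had few calls: of 55 N-glycosylation genes 1 was higher and 4 lower, and of 27 GPI anchor genes 1 was higher and 1 lower. Dpm2, a subunit of dolichol phosphate mannose synthase, was the GPI anchor gene that rose, at 42.4 and 46.5 FPKM under scrambled siRNA and 58.5 and 59.3 FPKM under lnc-31 siRNA (log2 fold change 0.40, adjusted p = 0.0141, lost without scrambled siRNA 1 or library 2 of lnc-31 siRNA with adjusted p = 0.0544 to 0.0632). Of 84 genes of O-glycan, sialic acid and glycosaminoglycan synthesis, 9 were higher (10.7%, against 5.64% of all rows) and 5 lower (5.95%, against 6.78%). Ugdh, which makes UDP-glucuronic acid for hyaluronan and proteoglycans, lay at 69.6 and 72.97 FPKM with scrambled siRNA against 100.04 and 99.2 FPKM with lnc-31 siRNA, a log2 fold change of 0.48 (SE 0.042, adjusted p = 0.0057), and was stable.

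Lipid enzymes rose and fell. Smpdl3a, a phosphodiesterase related to acid sphingomyelinase, stood at 1.81 and 1.83 FPKM under scrambled siRNA and 4.05 and 4.003 FPKM under lnc-31 siRNA, a log2 fold change of 0.83 (SE 0.075, adjusted p = 0.00603). Acsbg1, an acyl-CoA synthetase, measured 12.4 and 12.9 FPKM with scrambled siRNA against 21.996 and 23.2 FPKM with lnc-31 siRNA, a log2 fold change of 0.79 (SE 0.053, adjusted p = 0.0044). Pi4k2b, a phosphatidylinositol 4-kinase, stood at 19.02 and 19.8 FPKM under scrambled siRNA and 32.7 and 32.9 FPKM under lnc-31 siRNA, a log2 fold change of 0.73 (SE 0.045, adjusted p = 0.00361). These 3 rose stably, each with the libraries of a group close together. Ptgs2 (COX-2), the inducible enzyme of prostaglandin synthesis, lay at 28.4 and 27.7 FPKM with scrambled siRNA against 41.9 and 45.8 FPKM with lnc-31 siRNA, a log2 fold change of 0.63 (SE 0.055, adjusted p = 0.0057). Scd2, a stearoyl-CoA desaturase described after its values were seen, stood at 668 and 687 FPKM under scrambled siRNA and 446 and 429.98 FPKM under lnc-31 siRNA, a log2 fold change of -0.63 (SE 0.047, adjusted p = 0.00549). G0s2, an inhibitor of the triglyceride lipase Pnpla2, also described after its values were seen, measured 26.5 and 32.1 FPKM with scrambled siRNA against 49.6 and 49.5 FPKM with lnc-31 siRNA, a log2 fold change of 0.74 (SE 0.089, adjusted p = 0.0105). Of these, Scd2 alone fell. Sgms2, a sphingomyelin synthase, stood at 5.19 and 4.94 FPKM under scrambled siRNA and 2.999 and 3.02 FPKM under lnc-31 siRNA (log2 fold change -0.60, adjusted p = 0.01). Ptdss1, which makes phosphatidylserine, lay at 25.6 and 26.2 FPKM with scrambled siRNA against 18.5 and 19.1 FPKM with lnc-31 siRNA (log2 fold change -0.44, adjusted p = 0.008). Both were lower in each lnc-31 library. Their calls were lost without scrambled siRNA 1 for Sgms2 (adjusted p = 0.0568) and without scrambled siRNA 2 for Ptdss1 (adjusted p = 0.0519). Of 34 phospholipases and diacylglycerol kinases 4 were higher (11.8%, against 5.64% of all rows) and none lower (against 6.78%). Of 35 fatty acid oxidation genes 0 were called by limma, and 2 had an unadjusted p under 0.05.

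Of 60 redox enzymes 9 were higher (15%, against 5.64% of all rows) and 4 lower (6.67%, against 6.78%). Outside the excluded lists 6 were higher and 2 lower of 45. Of 30 aldehyde dehydrogenases and reductases 3 were higher (10%) and 2 lower (6.67%). Aldh3a1, an aldehyde dehydrogenase, stood at 153 and 158 FPKM under scrambled siRNA and 92.2 and 93.7 FPKM under lnc-31 siRNA, a log2 fold change of -0.74 (SE 0.040, adjusted p = 0.00297). Glrx (glutaredoxin 1), which removes glutathione from proteins, measured 26.3 and 27.1 FPKM with scrambled siRNA against 17.6 and 15.9 FPKM with lnc-31 siRNA, a log2 fold change of -0.64 (SE 0.061, adjusted p = 0.00683). Idh1, the cytosolic isocitrate dehydrogenase that supplies NADPH, stood at 68.97 and 68.6 FPKM under scrambled siRNA and 51.7 and 51.7 FPKM under lnc-31 siRNA, a log2 fold change of -0.41 (SE 0.038, adjusted p = 0.00664). In all 3 the lnc-31 libraries lay well below the scrambled pair. Txnip, which binds and inhibits thioredoxin, moved the other way, at 3.55 and 3.75 FPKM with scrambled siRNA against 6.96 and 6.43 FPKM with lnc-31 siRNA, a log2 fold change of 0.73 (SE 0.072, adjusted p = 0.00764). Mtap, which recycles the methylthioadenosine left by polyamine synthesis, lay at 126 and 124 FPKM under scrambled siRNA and 88.6 and 87.8 FPKM under lnc-31 siRNA, a log2 fold change of -0.50 (SE 0.038, adjusted p = 0.00559). Oaz2, an antizyme that marks ornithine decarboxylase for degradation, stood at 45.4 and 49.3 FPKM with scrambled siRNA against 33.1 and 34.1 FPKM with lnc-31 siRNA, a log2 fold change of -0.48 (SE 0.054, adjusted p = 0.0094). Of 38 genes of polyamine, methionine and folate metabolism 6 were higher (15.8%) and 7 lower (18.4%), and outside the excluded lists 3 and 5 of 32. Smox, a spermine oxidase described after its values were seen, measured 8.74 and 8.66 FPKM under scrambled siRNA and 11.6 and 11.3 FPKM under lnc-31 siRNA (log2 fold change 0.36, adjusted p = 0.0169, lost with any 1 library left out with adjusted p = 0.0642 to 0.0787). Sephs2, which makes the selenium donor of selenoproteins, stood at 23.5 and 23.6 FPKM with scrambled siRNA against 12.2 and 10.8 FPKM with lnc-31 siRNA, a log2 fold change of -0.98 (SE 0.066, adjusted p = 0.0044). Aldh3a1, Txnip and Sephs2 were stable. Of 77 TCA cycle and glycolysis genes, 2 were higher (2.6%) and 7 lower (9.09%).

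Signalling enzymes with stable calls included a GTPase, an exchange factor, a kinase and a phosphatase. Rhob, a small GTPase of endosomes, lay at 63.7 and 65.3 FPKM under scrambled siRNA and 98.4 and 105 FPKM under lnc-31 siRNA, a log2 fold change of 0.65 (SE 0.047, adjusted p = 0.0053). Arhgef7 (beta-Pix), an exchange factor for Rac and Cdc42, stood at 13.8 and 14.05 FPKM with scrambled siRNA against 8.31 and 8.63 FPKM with lnc-31 siRNA, a log2 fold change of -0.66 (SE 0.053, adjusted p = 0.00559). Prkcb, a protein kinase C, measured 3.62 and 4.25 FPKM under scrambled siRNA and 1.74 and 1.51 FPKM under lnc-31 siRNA, a log2 fold change of -0.91 (SE 0.10, adjusted p = 0.00925). Rhob rose while the others fell, with no overlap of the groups. Of 123 small GTPases 9 were higher (7.32%, against 5.64% of all rows) and 3 lower (2.44%, against 6.78%). Of 141 regulators of GTPases 13 were higher (9.22%) and 7 lower (4.96%). Dusp18, a dual specificity phosphatase, stood at 21.5 and 22.05 FPKM with scrambled siRNA against 14.6 and 14.5 FPKM with lnc-31 siRNA, a log2 fold change of -0.55 (SE 0.046, adjusted p = 0.00559). Dusp13, a relative found in muscle and testis, lay at 1.43 and 2.23 FPKM under scrambled siRNA and 3.57 and 3.84 FPKM under lnc-31 siRNA (log2 fold change 0.75, adjusted p = 0.0323). Dusp6, which inactivates ERK, stood at 29.7 and 31.1 FPKM with scrambled siRNA against 38.95 and 38.3 FPKM with lnc-31 siRNA (log2 fold change 0.34, adjusted p = 0.0132). These 2 rose, but neither was stable. The calls were lost with any 1 library left out for Dusp6 (adjusted p = 0.0501 to 0.0724) and without scrambled siRNA 1 or library 1 or 2 of lnc-31 siRNA for Dusp13 (adjusted p = 0.0681 to 0.107).

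Genes of the ubiquitin system were called in both directions, at shares near those of all rows. Rnf11, a RING finger protein, measured 57.95 and 58.05 FPKM under scrambled siRNA and 28.4 and 29.7 FPKM under lnc-31 siRNA, a log2 fold change of -0.97 (SE 0.043, adjusted p = 0.00217). Otud6b, a deubiquitinase of the OTU class, stood at 40.3 and 40.4 FPKM with scrambled siRNA against 24.2 and 23.5 FPKM with lnc-31 siRNA, a log2 fold change of -0.74 (SE 0.042, adjusted p = 0.00316). Fbxo9, an F-box subunit of an SCF ligase, lay at 12.5 and 11.7 FPKM under scrambled siRNA and 6.91 and 6.88 FPKM under lnc-31 siRNA, a log2 fold change of -0.73 (SE 0.060, adjusted p = 0.00559). In each the lnc-31 libraries lay far below the scrambled pair. Socs6, a substrate receptor that ends cytokine signals, stood at 16.7 and 16.8 FPKM with scrambled siRNA against 10.7 and 10.6 FPKM with lnc-31 siRNA, a log2 fold change of -0.60 (SE 0.048, adjusted p = 0.00559). Pja2 (praja2), a RING ligase of protein kinase A subunits, measured 34.6 and 34.3 FPKM under scrambled siRNA and 25.4 and 24.8 FPKM under lnc-31 siRNA, a log2 fold change of -0.44 (SE 0.042, adjusted p = 0.00703). All 5 fell stably. Of 163 RING and other ligases 9 were higher (5.52%) and 8 lower (4.91%). Of 129 F-box, Kelch and cullin parts 9 were higher and 9 lower (6.98% each). Of 109 deubiquitinases and E2 enzymes 5 were higher (4.59%) and 8 lower (7.34%). With 5.64% and 6.78% of all rows called, these counts are not read as results about the families. The F-box, Kelch and cullin list held 2 stable rises and 1 stable fall. Btbd17, a BTB domain protein in it, rose stably, at 1.78 and 1.66 FPKM with scrambled siRNA against 3.78 and 3.57 FPKM with lnc-31 siRNA, a log2 fold change of 0.78 (SE 0.081, adjusted p = 0.00803). Usp25, a deubiquitinase that rose, stood at 9.83 and 9.53 FPKM under scrambled siRNA and 13.6 and 13.9 FPKM under lnc-31 siRNA (log2 fold change 0.47, adjusted p = 0.00925, lost without scrambled siRNA 2 with adjusted p = 0.0559).

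Of 33 lysine demethylases and sirtuins 5 were higher (15.2%, against 5.64% of all rows) and none lower (against 6.78%). Kdm6b (JMJD3), which removes methyl groups from histone H3 lysine 27, lay at 9.01 and 9.1 FPKM with scrambled siRNA against 12.1 and 11.8 FPKM with lnc-31 siRNA (log2 fold change 0.37, adjusted p = 0.016). Kdm5b, which acts on H3 lysine 4, stood at 3.95 and 4.65 FPKM under scrambled siRNA and 6.25 and 5.89 FPKM under lnc-31 siRNA (log2 fold change 0.42, adjusted p = 0.0379). Kdm7a measured 2.84 and 3.23 FPKM with scrambled siRNA against 4.21 and 4.26 FPKM with lnc-31 siRNA (log2 fold change 0.38, adjusted p = 0.0393). In each the lnc-31 libraries exceeded the scrambled range. Kdm4a and Kdm4b, demethylases of H3 lysine 9 described after their values were seen, were the other 2. Kdm4b stood at 4.63 and 4.97 FPKM under scrambled siRNA and 5.99 and 6.49 FPKM under lnc-31 siRNA (log2 fold change 0.32, adjusted p = 0.046). None was stable, and calls were lost with any 1 library left out for Kdm6b, Kdm5b, Kdm7a, Kdm4a and Kdm4b (adjusted p = 0.0606 to 0.175). Of 93 protein and RNA methyltransferases 3 were higher (3.23%) and 5 lower (5.38%). Setd8, the monomethyltransferase of histone H4 lysine 20, fell stably, at 70.7 and 74.3 FPKM with scrambled siRNA against 48.6 and 50.2 FPKM with lnc-31 siRNA, a log2 fold change of -0.54 (SE 0.045, adjusted p = 0.00559). Hdac11, a class IV histone deacetylase that lay outside the lists used, rose stably, at 2.23 and 2.73 FPKM under scrambled siRNA and 5.9 and 6.02 FPKM under lnc-31 siRNA, a log2 fold change of 1.003 (SE 0.092, adjusted p = 0.00635).

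Zbtb18, a zinc finger repressor that acts in brain and muscle, was the transcription factor outside the excluded lists that rose most. It lay at 12.5 and 12.6 FPKM with scrambled siRNA against 22.4 and 22.1 FPKM with lnc-31 siRNA, a log2 fold change of 0.78 (SE 0.046, adjusted p = 0.00333). Heyl, a Notch target of the Hey family, stood at 13.2 and 15.4 FPKM under scrambled siRNA and 23.2 and 23.6 FPKM under lnc-31 siRNA, a log2 fold change of 0.67 (SE 0.077, adjusted p = 0.0098). Klf4, a Krüppel-like factor, measured 14.5 and 15.9 FPKM with scrambled siRNA against 21.9 and 22.4 FPKM with lnc-31 siRNA, a log2 fold change of 0.51 (SE 0.057, adjusted p = 0.0094). All 3 were stable, the libraries of each group lying close together. Of 44 bHLH factors 8 were higher (18.2%, against 5.64% of all rows) and 3 lower (6.82%, against 6.78%). Without the excluded lists 5 were higher and 3 lower of 38. The list of C/EBP, Maf, CREB, AP-1 and NRF factors had 14 higher (31.8%) and 3 lower of 44, with 7 higher and 1 lower of 28 outside the excluded lists. Jund, an AP-1 subunit, stood at 12.4 and 10.7 FPKM under scrambled siRNA and 15.2 and 18.6 FPKM under lnc-31 siRNA (log2 fold change 0.51, adjusted p = 0.0403). Mycl, a Myc family member, lay at 3.94 and 3.61 FPKM with scrambled siRNA against 5.56 and 6.04 FPKM with lnc-31 siRNA (log2 fold change 0.51, adjusted p = 0.0176). Mxd4, a Max partner that represses Myc targets, stood at 9.44 and 11.1 FPKM under scrambled siRNA and 14.4 and 15.8 FPKM under lnc-31 siRNA (log2 fold change 0.52, adjusted p = 0.0243). The lnc-31 libraries were above both scrambled ones in each. These calls were lost without scrambled siRNA 1 or 2 or library 2 of lnc-31 siRNA for Jund and Mycl (adjusted p = 0.0619 to 0.146) and without scrambled siRNA 1 or library 1 or 2 of lnc-31 siRNA for Mxd4 (adjusted p = 0.0525 to 0.0885).

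Outside the excluded lists, Srf had the lowest log2 fold change of the called transcription factors. Serum response factor, which drives actin, muscle and immediate early genes, measured 16.7 and 17.4 FPKM with scrambled siRNA against 9.73 and 10.8 FPKM with lnc-31 siRNA, a log2 fold change of -0.68 (SE 0.066, adjusted p = 0.00745). Tfdp1, the dimerization partner of E2F proteins, stood at 109.5 and 109 FPKM under scrambled siRNA and 72.03 and 76.3 FPKM under lnc-31 siRNA, a log2 fold change of -0.55 (SE 0.045, adjusted p = 0.00559). Both were stable, and in both the 2 groups were far apart relative to their libraries. Ikzf5, an Ikaros family factor, lay at 10.6 and 12.1 FPKM with scrambled siRNA against 6.81 and 7.69 FPKM with lnc-31 siRNA (log2 fold change -0.58, adjusted p = 0.0176). Ncoa7, a nuclear receptor coactivator, stood at 6.92 and 7.41 FPKM under scrambled siRNA and 4.81 and 4.83 FPKM under lnc-31 siRNA (log2 fold change -0.49, adjusted p = 0.0135). Of 35 nuclear receptors and coregulators none was higher and 5 were lower (14.3%, against 6.78% of all rows). Outside the excluded lists 3 of 33 were lower. Zbtb37 measured 2.86 and 2.49 FPKM with scrambled siRNA against 1.62 and 1.71 FPKM with lnc-31 siRNA (log2 fold change -0.46, adjusted p = 0.0349). Mxd3 stood at 21.7 and 23.1 FPKM under scrambled siRNA and 15.7 and 16.3 FPKM under lnc-31 siRNA (log2 fold change -0.46, adjusted p = 0.00999). Calls were lost with any 1 library left out for Ncoa7 and Zbtb37 (adjusted p = 0.051 to 0.128), without scrambled siRNA 2 or library 1 of lnc-31 siRNA for Ikzf5 (adjusted p = 0.0594 to 0.0762) and without scrambled siRNA 2 for Mxd3 (adjusted p = 0.0594). Of 26 STAT, IRF and NF-kB factors 0 were called by limma, and 3 had an unadjusted p under 0.05.

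Promoter sequences of 4 of these genes are printed to show the letters that were searched for. They are the 250 bases before the annotated start in RefSeq for GRCm38.p6, 5′ to 3′ on the strand of the gene, with matches in capitals. Klf4 and Cela1, a gene that rose, hold the E-box CAGCTG (Klf4 also CACGTG), Srf, which fell, holds CArG boxes, the sites of SRF itself, and Nomo1, which fell, holds the AP-1 heptamer TGACTCA on the opposite strand.
Klf4, chr4:55532476-55532725, minus strand: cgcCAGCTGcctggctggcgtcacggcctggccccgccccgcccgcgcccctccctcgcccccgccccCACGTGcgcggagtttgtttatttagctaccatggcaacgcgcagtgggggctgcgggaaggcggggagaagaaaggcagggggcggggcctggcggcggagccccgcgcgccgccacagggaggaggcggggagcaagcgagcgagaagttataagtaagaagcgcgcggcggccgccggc
Cela1, chr15:100687921-100688170, minus strand: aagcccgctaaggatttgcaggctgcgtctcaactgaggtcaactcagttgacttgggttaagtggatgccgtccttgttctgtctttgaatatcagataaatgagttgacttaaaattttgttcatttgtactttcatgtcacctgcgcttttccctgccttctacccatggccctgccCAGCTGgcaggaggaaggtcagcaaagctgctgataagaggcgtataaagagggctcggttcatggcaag
Srf, chr17:46556163-46556412, minus strand: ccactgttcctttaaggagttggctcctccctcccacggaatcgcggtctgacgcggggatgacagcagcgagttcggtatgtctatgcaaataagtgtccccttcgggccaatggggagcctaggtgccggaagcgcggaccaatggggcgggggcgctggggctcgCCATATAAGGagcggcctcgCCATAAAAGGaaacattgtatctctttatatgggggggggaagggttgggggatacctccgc
Nomo1, chr7:46033446-46033695, plus strand: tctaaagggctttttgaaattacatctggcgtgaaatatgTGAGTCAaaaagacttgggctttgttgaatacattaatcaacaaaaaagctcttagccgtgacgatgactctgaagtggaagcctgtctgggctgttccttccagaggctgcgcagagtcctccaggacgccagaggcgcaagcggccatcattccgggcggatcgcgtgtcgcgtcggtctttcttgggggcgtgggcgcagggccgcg
Over both strands, CAGCTG was in 12% of the 11006 windows of tested genes, in 18.5% of 638 windows of rows called higher and in 10.9% of 716 windows of rows called lower. Outside the excluded lists these shares were 17.1% and 11.5%. TGACTCA was in 3.24%, 4.39% and 3.35% of the same windows, CACGTG in 8.46%, 8.62% and 9.5%, and the CArG box in 1.2%, 1.57% and 1.4%. CAGCTG and CACGTG are both E-boxes but do not overlap each other in letters. Promoters were found for 8590 of 11960 gene names, and some genes have several starts. A match describes letters in a window, and no binding was measured.

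Of 90 families, 53 had called members of both directions. These were the larger families, with a median of 37 tested members against 15 in the others, and with 5.64% and 6.78% of all rows called a large family can hold both kinds at the background rate. The pairs below were chosen for their opposite calls. Igfbp5 rose and Igfbp4 fell, with 226 and 246 FPKM against 344 and 338 for the first and 29.1 and 32.1 against 21.99 and 21.7 for the second. Angptl4, which inhibits lipoprotein lipase, lay at 15.2 and 15.98 FPKM with scrambled siRNA against 21.1 and 21.4 FPKM with lnc-31 siRNA (log2 fold change 0.42, adjusted p = 0.00999). Angptl2, its relative, stood at 101 and 104 FPKM under scrambled siRNA and 77.9 and 82.4 FPKM under lnc-31 siRNA (log2 fold change -0.36, adjusted p = 0.0122). These ran in opposite directions in both lnc-31 libraries. Klf10 fell beside the rise of Klf4, at 31.4 and 31.2 FPKM with scrambled siRNA against 24.6 and 24.4 FPKM with lnc-31 siRNA (log2 fold change -0.34, adjusted p = 0.0106). Among Eph receptors Ephb6 rose while Epha1 fell, and Ephb6 measured 8.89 and 9.53 FPKM under scrambled siRNA and 13.2 and 12.2 FPKM under lnc-31 siRNA (log2 fold change 0.43, adjusted p = 0.0181). Myc family genes differed in the same way. Myc, described after its values were seen, fell beside Mycl, at 34.7 and 32.8 FPKM with scrambled siRNA against 25.97 and 27.2 FPKM with lnc-31 siRNA (log2 fold change -0.33, adjusted p = 0.0176). None of the relatives given here for the first time was stable, and calls were lost with any 1 library left out for Myc (adjusted p = 0.0502 to 0.0877), without scrambled siRNA 1 or 2 or library 1 of lnc-31 siRNA for Ephb6 (adjusted p = 0.0654 to 0.0856), without scrambled siRNA 1 or 2 for Angptl2 and Klf10 (adjusted p = 0.064 to 0.0741) and without scrambled siRNA 1 for Angptl4 (adjusted p = 0.0567).

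**Figure D4:**
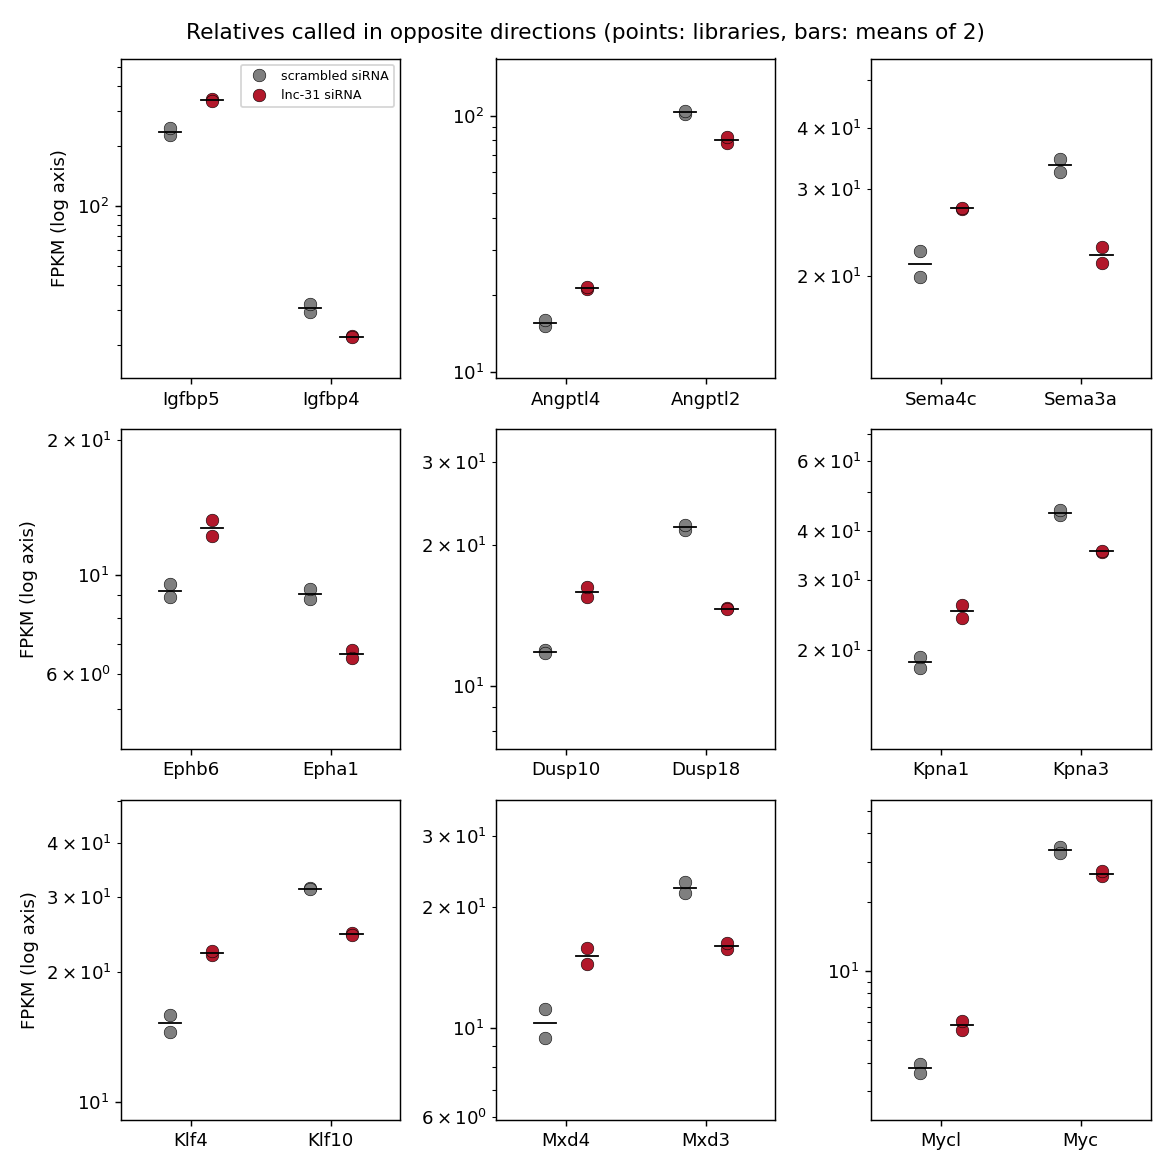
FPKM on log axes of 9 pairs of relatives chosen because they were called in opposite directions; grey points are the 2 scrambled siRNA libraries, red points the 2 lnc-31 siRNA libraries and bars their means. In every pair the first gene lies higher and the second lower with lnc-31 siRNA, as for Klf4 (14.5 and 15.9 against 21.9 and 22.4 FPKM) and Klf10 (31.4 and 31.2 against 24.6 and 24.4 FPKM).

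Outside all lists, 335 of 7961 rows were higher (4.21%) and 490 lower (6.16%). Cela1, a pancreatic elastase, stood at 14.1 and 15.5 FPKM under scrambled siRNA and 29.5 and 34.8 FPKM under lnc-31 siRNA, a log2 fold change of 1.07 (SE 0.089, adjusted p = 0.00559). Prl2c3, a proliferin of the prolactin family, lay at 134 and 110.1 FPKM with scrambled siRNA against 241 and 240.03 FPKM with lnc-31 siRNA, a log2 fold change of 0.98 (SE 0.094, adjusted p = 0.00703). Prl2c2, described after its values were seen, stood at 266 and 230.1 FPKM under scrambled siRNA and 403 and 407 FPKM under lnc-31 siRNA, a log2 fold change of 0.71 (SE 0.074, adjusted p = 0.00803). The proliferin genes are near-identical copies whose fragments the counting could have split, so the values of each are uncertain. Lgals3bp, a secreted galectin-3 binding protein, measured 3.24 and 3.69 FPKM with scrambled siRNA against 6.82 and 7.85 FPKM with lnc-31 siRNA, a log2 fold change of 0.90 (SE 0.092, adjusted p = 0.008). Tgm2, a transglutaminase that cross-links proteins, stood at 4.4 and 4.51 FPKM under scrambled siRNA and 8.69 and 8.23 FPKM under lnc-31 siRNA, a log2 fold change of 0.79 (SE 0.063, adjusted p = 0.00559). Both were higher in each lnc-31 library. Acp1, a low molecular weight tyrosine phosphatase, lay at 16.4 and 16.6 FPKM with scrambled siRNA against 29.8 and 28.9 FPKM with lnc-31 siRNA, a log2 fold change of 0.79 (SE 0.045, adjusted p = 0.00316). Prr9 stood at 11.4 and 11.4 FPKM under scrambled siRNA and 23.1 and 22.998 FPKM under lnc-31 siRNA, a log2 fold change of 0.95 (SE 0.046, adjusted p = 0.00217). All of these rises were stable.

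Falls outside the lists are given gene by gene, since no list groups them. The row RP24-275B23.1 was listed at 3.71 and 3.49 FPKM with scrambled siRNA and at 0 in both lnc-31 libraries, and no fold is given. Ergic1, a protein of the compartment between endoplasmic reticulum and Golgi, measured 68.4 and 70.6 FPKM with scrambled siRNA against 37.4 and 37.7 FPKM with lnc-31 siRNA, a log2 fold change of -0.87 (SE 0.041, adjusted p = 0.00217). Sppl2a, a protease that cleaves within membranes, stood at 28.9 and 31.4 FPKM under scrambled siRNA and 16.4 and 17.4 FPKM under lnc-31 siRNA, a log2 fold change of -0.80 (SE 0.060, adjusted p = 0.00549). Ergic1 and Sppl2a were stable. Prpf18, a splicing factor of the second step, lay at 17.9 and 17.5 FPKM with scrambled siRNA against 8.33 and 8.75 FPKM with lnc-31 siRNA, a log2 fold change of -0.97 (SE 0.053, adjusted p = 0.00297). Rqcd1, a subunit of the CCR4-NOT deadenylase, stood at 45.4 and 44.6 FPKM under scrambled siRNA and 23.8 and 25.6 FPKM under lnc-31 siRNA, a log2 fold change of -0.84 (SE 0.051, adjusted p = 0.00356). Itga3, an integrin subunit described after its values were seen, measured 26.95 and 25.3 FPKM with scrambled siRNA against 17.3 and 16.7 FPKM with lnc-31 siRNA, a log2 fold change of -0.59 (SE 0.052, adjusted p = 0.0057). In these 3 the groups were far apart and all were stable. Hiatl1, a transporter-like membrane protein, stood at 25.6 and 25.9 FPKM under scrambled siRNA and 14.3 and 15.5 FPKM under lnc-31 siRNA, a log2 fold change of -0.75 (SE 0.056, adjusted p = 0.00549). Lce1g, a cornified envelope gene, lay at 1.95 and 1.88 FPKM with scrambled siRNA against 0.439 and 0.515 FPKM with lnc-31 siRNA, and reached 1 FPKM only with scrambled siRNA, so no fold or call is given for it. Hiatl1 was lower in each lnc-31 library and was stable.

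Overlap with the pull-down was examined by gene body, with a minimum overlap of 1 base. The pull-downs recovered RNA with probes against lnc-31 or against lacZ, with 1 library each, so there is no test. Peaks of the lnc-31 probes lay over 2.03% of the tested genes with a position, 1.5% of those called higher and 2.37% of those called lower. Peaks of the lacZ probes lay over 1.94%, 1.83% and 2.79%. Of 101 genes with a position that were stable and outside the excluded lists, 0 had a peak of the lnc-31 probes and 1, Slc4a7, had lacZ peaks. Among the genes named here, Rock1 held 10 peaks of the lnc-31 probes, Ncoa7 2 and the Mir31 row 1, and none of these 3 held a peak of the lacZ probes.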

How the data were processed

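The 4 C2C12 libraries were prepared with a kit for stranded mRNA, per the labels' protocols. The deposited values are FPKM on mm10; per the submitters' processing notes the authors used Cuffdiff, TopHat2, BWA, Bowtie2, Trimmomatic and CASAVA; cutadapt and Picard are named for the pull-downs, whose deposited peak lists gave start and end positions. Versions and counting settings are not given in the sources used here. FPKM carries no counts, so depth is unknown and its effect on precision was seen only as spread between libraries. An exact 0, found in 34 tested rows, can be a failed estimate. Rows that join several genes (287) were kept, and 0 sample columns matched no label.

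The groups were compared by limma 3.58.1 under R 4.3.3 on log2(FPKM + 1) for rows averaging at least 1 FPKM (two-sided, Benjamini-Hochberg at 0.05, prior variance with a trend and 3.62 prior degrees of freedom), a script tested on simulated data. Fold changes on this log2 scale, computed from the deposited FPKM, understate the change of low genes. The members, roles, 90 families and excluded lists were chosen with earlier results of these data known, and some family patterns were corrected after matches were seen. Families were matched by symbol, so a family can hold members of other function. Named were, per role, the 6 highest and 6 lowest called genes whose groups did not overlap and that no excluded list held, 8 and 8 outside all lists, up to 3 called genes per family by smallest p, the Mir31 row, Rock1 and Ybx1, without names beginning Gm or ending Rik. Not all of these are described, 1 gene is not reported here, and genes added later are marked as described after their values were seen. RefSeq on GRCm38.p6 (the coordinates of mm10) supplied positions and promoters; 10586 of 11500 rows matched (92.1%). Other software was numpy 2.4.6, pandas 2.3.3, matplotlib 3.10.9 and Python 3.11.15. Alternative settings were pseudocounts of 0.1 and 0.5, no filter, a mean of 5 FPKM, quantile and median of ratios scaling, a constant prior, a block for replicate number, and each library left out.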

Additional observations from a re-analysis of the deposited data

How the results depend on the processing

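No called row changed sign in any alternative in which it was fitted. The count of 1429 called rows was 1462 and 1439 with pseudocounts of 0.1 and 0.5, 1293 without a filter, 1436 above a mean of 5 FPKM, 1080 with a constant prior variance, 1928 with quantile normalization and 1933 with median of ratios scaling. Receptors called lower, 5 as reported, were 9 with quantile normalization, and transporters called higher, 35 as reported, were 56 with median of ratios scaling; the cause was not tested. With the replicate number as a block, 1613 rows were called, 728 higher and 885 lower, and 8 receptors were lower. Deviations of same-numbered libraries from their group means had a correlation over rows of -0.0944. With 2 libraries per group both pairs give this same value by construction. The numbers were not taken to pair the libraries.

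With 1 library left out, its group has a single library that is assumed to vary like the other group. Calls then ranged from 260 to 491, higher from 132 to 266 and lower from 97 to 242; the total was lowest without scrambled siRNA 2. Secreted factors had 5 to 12 higher and 3 to 8 lower, receptors 2 to 6 and 1 to 2, transporters 8 to 15 and 4 to 13, enzymes 18 to 30 and 19 to 32, and transcription factors 10 to 23 and 4 to 10. Of 271 called genes chosen by the rule or added later, 84 kept their call in all 4 such fits, while a constant prior variance ended 42 calls, no filter 24 and the block 21. Fewer residual degrees of freedom are part of how these fits are made. The unknown depth means that low genes cannot be given a counting error.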

Other observations

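Called genes outside the excluded lists sometimes lay side by side in the genome. Pairs were formed from called genes next to each other in order of position, without overlap and less than 20 kb apart. Chromosome 18 was left out. There were 61 such pairs, of which 41 moved in the same direction and 20 in opposite directions. No test was made of these counts, pairs of other genes were not counted, and neighbouring genes can share fragments. Slc16a11 and Slc16a13, monocarboxylate carriers 374 bases apart on chromosome 11 in GRCm38.p6, both fell (log2 fold change -0.53 and -0.58). Mt2 and Mt1, 5315 bases apart on chromosome 8, both fell (-0.53 and -0.46). St3gal3, a sialyltransferase, and Kdm4a, 1984 bases apart on chromosome 4, both rose (0.23 and 0.24). Within these pairs the gene with the larger change was not always the one with the higher level: Slc16a11 had 61.9 and 63.4 FPKM with scrambled siRNA against 16.3 and 17.5 FPKM for Slc16a13.

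Stable rises outside the roles included Ndrg1 and Gpt2, both chosen after their values were seen. Ndrg1, a stress-responsive gene of cell differentiation, gave 14.6 and 14.3 FPKM under scrambled siRNA and 22.7 and 24.6 FPKM under lnc-31 siRNA (log2 fold change 0.67). Gpt2, the mitochondrial alanine aminotransferase, was at 16.3 and 19.5 FPKM against 30.5 and 28.7 FPKM (0.70). Both kept their call with each library left out in turn.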
